A study of Mus musculus with 6 samples.

Results

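The paired immunoglobulin-like receptors and the related receptor LAIR1 were followed in mouse testis: 7 genes measured by 15 array probes, of 55681 probes on the array. The probes were chosen by gene name, Lilrb3, Lilrb4, Lair1, Lilra6, Pira2, Pira7 and Pira11. Of 9 names asked for, Pira1 and Pira4 are not among the array's gene names. RNA was compared between whole testes of 3 AROM+ mice, transgenic animals with an excess of aromatase (the enzyme that makes oestrogen from androgen), and of 3 wild-type (WT) mice. All were C57BL/6 males of 5 months of age, with 1 testis per one-colour Agilent array, and no treatment is given for either group. The labels name neither the promoter that drives the transgene nor the line.

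These receptors are surface proteins of myeloid and some other white blood cells. An inhibitory member carries cytoplasmic ITIM motifs that recruit phosphatases such as SHP-1 when the receptor binds its ligand, whereas an activating member has a short tail and signals through a partner with an ITAM motif, such as the Fc receptor gamma chain. In the mouse, Lilrb3 encodes the inhibitory receptor PIR-B (RefSeq symbol Pirb), the Pira genes and Lilra6 (also named Pira3) encode activating PIR-A type receptors with very similar outer domains, Lilrb4 encodes the inhibitory receptor gp49B, and Lair1 encodes an inhibitory receptor for collagen. PIR-A and PIR-B bind MHC class I molecules. Macrophages of the testis lie in the interstitium, beside the Leydig cells.

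Because the genes resemble each other, the probes decide what can be told apart. All coordinates of probes are those of the files, on NCBI37/mm9. The probes of Pira11 (chr7:3789757-3789816, minus strand) and Pira7 (chr7:3789721-3789780, minus strand) overlap on the chromosome and share 24 bases, the longest run among the 105 pairs of the 15 probes. A Lilra6 probe (A_55_P2079560, chr7:3860217-3860276, minus strand) shares 22 bases with Pira7, and a second one (A_55_P2079561, chr7:3860277-3860336, minus strand) shares 14 bases with Pira11. Capitals mark the shared run:
Pira11 A_55_P2151685: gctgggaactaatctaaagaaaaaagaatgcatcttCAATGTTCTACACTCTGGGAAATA
Pira7 A_55_P2079579: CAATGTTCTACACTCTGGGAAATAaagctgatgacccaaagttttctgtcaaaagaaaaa
Lilra6 A_55_P2079560: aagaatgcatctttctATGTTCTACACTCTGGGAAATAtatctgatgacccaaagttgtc
Lilra6 A_55_P2079561: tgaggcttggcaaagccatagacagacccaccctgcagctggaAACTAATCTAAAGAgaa
No 2 of the 15 probes are identical, and 6 of the 105 pairs share an unbroken run of 12 bases or more. Unbroken runs understate likeness. Aligned with mismatches allowed, Lilra6 A_55_P2079560 matched the Pira7 probe at 41 of 44 bases and the Pira11 probe at 36 of 37. In the files' annotation 6 of the 15 probes list transcripts of another named gene as well. The Pira11 probe lists Pira6 and Pira7, the Pira7 probe lists Pira6, and the second Lilra6 probe lists Gm14548, Pira6 and Pira7. Signals of the Pira probes are therefore those of the named gene or of a close copy.

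The inhibitory genes each have a probe that rose and, for Lilrb3 and Lair1, a probe that did not. The pairs are given here since their results differ, together with a Lilrb4 probe (chr10:51216160-51216219, plus strand) and the probe of its neighbour Gp49a (chr10:51201615-51201674, plus strand). Lilrb3 A_55_P2097279 lies at chr7:3664137-3664196 and A_55_P2053398 at chr7:3663046-3663105, and Lair1 A_55_P1991214 lies at chr7:3959675-3959734 and A_55_P1991209 at chr7:3979924-3979983, all on the minus strand:
Lilrb3 A_55_P2097279: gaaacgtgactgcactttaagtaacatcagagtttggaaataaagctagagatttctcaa
Lilrb3 A_55_P2053398: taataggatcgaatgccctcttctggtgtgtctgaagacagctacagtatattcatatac
Lair1 A_55_P1991214: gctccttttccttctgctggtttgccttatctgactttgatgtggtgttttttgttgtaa
Lair1 A_55_P1991209: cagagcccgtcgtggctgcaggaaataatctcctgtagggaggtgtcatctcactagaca
Lilrb4 A_55_P1957459: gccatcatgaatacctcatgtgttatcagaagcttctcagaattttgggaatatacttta
Gp49a A_55_P2063736: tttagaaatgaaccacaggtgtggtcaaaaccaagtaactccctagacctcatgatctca
Of these, Lilrb3 A_55_P2053398 and Lair1 A_55_P1991209 list no RefSeq accession. The Lilrb4 and Gp49a probes each list both genes, so gp49A and gp49B were not separated.

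Values are log2 intensities relative to the 75th percentile of the array, and each difference is AROM+ minus WT, followed by limma's standard error (SE); both groups had 3 arrays. Testing required a signal well above background in every testis of one group or the other, and a probe was called if its adjusted p was under 0.05. Levels of different probes are not comparable with each other. Across all 42637 tested probes, 5982 (14.0%) were higher and 12946 (30.4%) lower in AROM+ testes, with a median difference of −0.19. With quantile normalization the split was 6642 higher and 9266 lower, and without WT replicate 3 it was 3822 higher and 6776 lower. Arrays correlated more closely within AROM+ (r = 0.989 to 0.992) and within WT (r = 0.994 to 0.996) than between the groups (r = 0.964 to 0.985; across probes, which are not independent replicates). All arrays were on 1 slide, WT in one row and AROM+ in the other, so position and genotype cannot be told apart. The spermatid transcripts Prm1, Prm2 and Tnp1 were bright in every array (lowest value 4.39). They were picked as a check of the tissue and do not stand for germ cell genes at large. Of 12 testis genes 1 was called higher and 4 lower. The lower ones were Ddx4 (−0.51 ± 0.15), Acr (−0.48 ± 0.09), Sycp3 (−0.30 ± 0.09) and Tnp2 (−0.29 ± 0.09). The calls of Ddx4 and Sycp3 were each lost in 5 of 6 fits that leave out an array.

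Receptor transcripts of both kinds, inhibitory and activating, were higher in AROM+ testes. Of the 14 tested receptor probes 12 were called higher, each at least 2-fold. These carry all 7 gene names, though some also list close copies. One probe was called lower, and 1 was not called. Of the 14 probes 11 were well above background in every WT testis, and the others entered the test only through AROM+ testes. With only probes well above background on all arrays, 9 were called higher. Over all tested probes 14.0% were called higher and 4.81% were called and at least 2-fold higher. Every AROM+ testis lay above every WT testis for the same 12 probes, against 17.7% of all tested probes, and below every WT testis for the other 2, against 40.4%. The median difference of the 14 probes was 1.95. The receptors were chosen from this same contrast, so these counts describe them and are no test. In whole tissue, more cells of a type and more RNA per cell cannot be told apart.

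**Figure D1:**
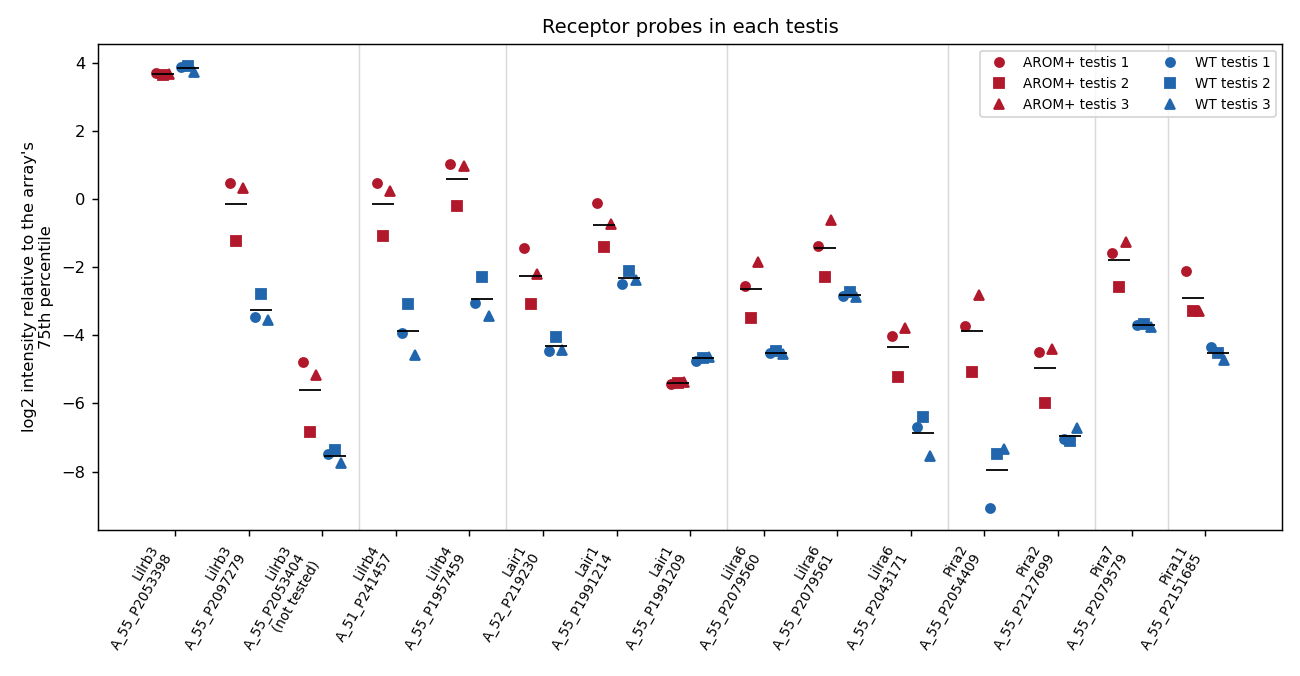
Log2 intensity of each receptor probe relative to the 75th percentile of its array (y axis), with the 3 AROM+ testes (red) left of the 3 WT testes (blue) and bars at the group means. For 12 of the 14 tested probes all 3 AROM+ testes lie above all 3 WT testes, with AROM+ testis 2 lowest of the AROM+ testes in 11 of them; heights of different probes cannot be compared.

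Lilrb4, which encodes the inhibitory receptor gp49B, was higher by both of its probes. The probe A_55_P1957459 read 1.04, −0.22 and 0.96 in AROM+ testes, against −3.05, −2.29 and −3.44 in WT testes. The groups were separated by more than the width of either, and their means were 0.59 ± 0.70 and −2.93 ± 0.58 (SD, n = 3 each). The difference was 3.52 ± 0.41, or 11.5-fold. A second Lilrb4 probe (A_51_P241457, chr10:51212976-51213891), whose 60 bases span more than their own length on the chromosome and so cross an exon junction, read 0.47, −1.09 and 0.23 in AROM+ testes, against −3.95, −3.07 and −4.59 in WT testes. It gave 3.73 ± 0.51, or 13.3-fold. The Gp49a probe, which also lists Lilrb4, gave 3.76 ± 0.51. In all 3 probes the lowest AROM+ testis was replicate 2 and the highest WT testis was also replicate 2, though the numbers only name the mice.

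Lilrb3, the gene of PIR-B, depended on the probe. A_55_P2097279, which lists the RefSeq transcript of the gene, read 0.46, −1.22 and 0.31 in AROM+ testes, against −3.45, −2.80 and −3.56 in WT testes. The difference was 3.12 ± 0.46, or 8.69-fold, and the groups did not overlap. A_55_P2053398, which lies 1.09 kb further along and matches no RefSeq accession, read 3.70, 3.64 and 3.66 in AROM+ testes, against 3.88, 3.90 and 3.74 in WT testes. Its difference of −0.18 ± 0.09 was not called. It became 0.04 with quantile normalization, so its direction is not settled. The third Lilrb3 probe (A_55_P2053404, chr7:3668688-3668742) was too dim to be tested. It read −4.79, −6.83 and −5.16 in AROM+ testes, against −7.48, −7.37 and −7.75 in WT testes, and was well above background in 2 AROM+ and 0 WT testes.

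Lair1, the gene of the collagen receptor LAIR1, also gave probes that differ in direction. A_55_P1991214 read −0.13, −1.41 and −0.72 in AROM+ testes, against −2.48, −2.11 and −2.37 in WT testes, a difference of 1.57 ± 0.31 or 2.97-fold. A_52_P219230 (chr7:3959434-3959493) read −1.44, −3.09 and −2.21 in AROM+ testes, against −4.45, −4.04 and −4.44 in WT testes, a difference of 2.06 ± 0.39 or 4.18-fold. Both lie close together in the gene, and in both the groups were apart. A_55_P1991209, about 20 kb away and annotated only to an Ensembl transcript, read −5.44, −5.40 and −5.36 in AROM+ testes, against −4.74, −4.67 and −4.62 in WT testes. It was the receptor probe called lower, by −0.72 ± 0.09, and its values varied little within either group.

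The activating receptors were higher by each of their 7 probes. Pira2, a PIR-A gene, was not well above background in any WT testis by probe A_55_P2054409 (chr7:3788573-3788632), which read −3.74, −5.08 and −2.82 in AROM+ testes, against −9.06, −7.49 and −7.34 in WT testes. Its fold was 8.69 when WT values were set no lower than the lowest signal well above background on each array. That value is an estimate and not a minimum. The other Pira2 probe (A_55_P2127699, chr7:3795605-3795664), which also lists Pira6, read −4.49, −5.97 and −4.39 in AROM+ testes, against −7.03, −7.11 and −6.72 in WT testes, of which 1 was well above background. Its difference was 2.00 ± 0.41, or 4.0-fold. With normexp background correction the differences of these 2 probes were 1.96 and 0.98.

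The overlapping probes named for Pira7 and Pira11, printed above, were both higher. They lie between the 2 Pira2 probes on the chromosome and list other Pira genes as well, so these genes were not measured apart. Pira7 read −1.58, −2.57 and −1.26 in AROM+ testes, against −3.69, −3.68 and −3.75 in WT testes. Pira11 read −2.10, −3.28 and −3.29 in AROM+ testes, against −4.34, −4.51 and −4.74 in WT testes. The differences were 1.91 ± 0.31 (3.75-fold) and 1.64 ± 0.32 (3.11-fold). For both probes the WT testes lay within 0.40 of each other while the AROM+ testes spread over more than 1 unit. Pira11 was the one raised probe in which AROM+ replicate 3, at −3.29, was the lowest, with replicate 2 at −3.28.

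Lilra6, another activating gene, had 3 probes, all higher. A_55_P2043171 (chr7:3864087-3864146), which lists Lilra6 alone and shares a run of 18 bases with the dim Lilrb3 probe, read −4.02, −5.23 and −3.79 in AROM+ testes, against −6.70, −6.40 and −7.54 in WT testes, of which 2 were well above background. It gave 2.53 ± 0.44 or 5.78-fold, and 0.97 with normexp background correction. A_55_P2079560 read −2.56, −3.49 and −1.85 in AROM+ testes, against −4.52, −4.45 and −4.54 in WT testes, and gave 1.87 ± 0.37 or 3.66-fold. A_55_P2079561, which 3 other genes share, read −1.39, −2.29 and −0.60 in AROM+ testes, against −2.86, −2.72 and −2.87 in WT testes. It gave 1.39 ± 0.38 or 2.62-fold, the smallest difference among the 12. Its call was lost without AROM+ replicate 1 (1.37) and without WT replicate 1 (1.37), 2 (1.44) or 3 (1.36).

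**Figure D2:**
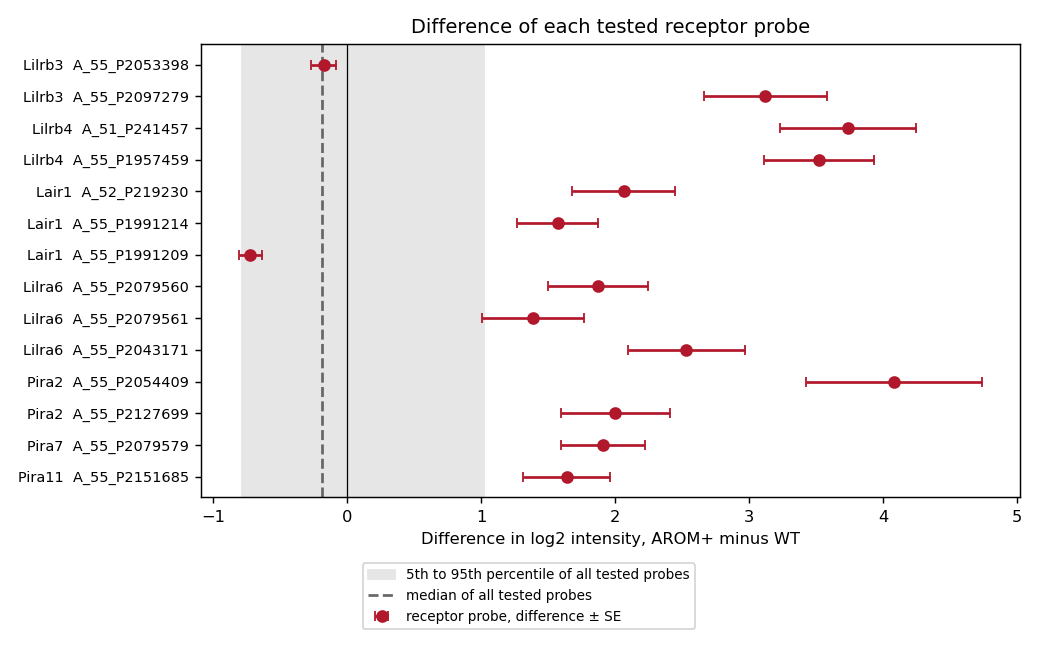
Difference in log2 intensity, AROM+ minus WT, of the 14 tested receptor probes with its SE (x axis; points and bars), beside the median (dashed) and the 5th to 95th percentile (grey) of all tested probes. Of these, 12 lie right of the grey band, which ends at 1.02, and the flat Lilrb3 and the lower Lair1 probe lie within it; the point of Pira2 A_55_P2054409 is a fitted value, since no WT testis was well above background.

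The spread among AROM+ testes had one pattern. In 11 of the 12 raised probes AROM+ replicate 2 was the lowest AROM+ testis, and in the 12th it was replicate 3. The highest was replicate 1 in 6 probes and replicate 3 in 6. Among the other 2038 probes called at least 2-fold higher, replicate 2 was the lowest in 51.6% and replicate 3 in 42.2%. The 12 raised probes spread over 1.19 to 2.25 log2 units among AROM+ testes and over 0.07 to 1.72 among WT testes. The probes share genes, sequence and arrays and are not independent of each other. Without AROM+ replicate 2 the median difference of the receptor probes was 2.39, against 1.95 with all arrays.

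The nearest profiles to the receptors over the 6 arrays were looked for among 21829 other named probes well above background on every array. Against the mean standardised profile of the 11 receptor probes well above background on every array, which include the flat Lilrb3 and the lower Lair1 probe, Pearson's r was 0.999 for Dgkz, a diacylglycerol kinase gene, 0.998 for Trit1 and 0.997 for Nkd2, Trpv2 and Tcirg1. Their own differences, between 0.31 for Trit1 and 1.61 for Tcirg1, were smaller than the median of the receptors. Each r rests on 6 arrays in 2 groups and is a description.

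Along chromosome 7 the raised receptor probes and those of their relatives had other genes mostly beside them. Between the raised Lilrb3 probe and Lair1 the only other tested probe was an unnamed one 271 kb from Lilrb3, with a difference of −0.22, not called. Of the 12 tested receptor probes on chromosome 7, 10 were higher, with a median of 1.89. Within 300 kb of them, a window chosen after the data were seen, lay 32 tested probes of 21 other names, some of them only probe or transcript identifiers. Of these probes 3 were higher and 6 lower, with a median of −0.02 and none at least 2-fold higher. Over all probes 14.0% were higher and 30.4% lower. The ribosomal protein gene Rps9 lies 5.85 kb from the raised Lilrb3 probe and had a difference of 0.00. Related receptor sequences within the window did rise: the pseudogene Gm10693 gave 2.53 and 2.09 by its 2 probes, Gm14548 gave 1.98 by a probe that shares a run of 41 bases with that of Pira7, and Pira6 gave 2.35 and 1.83. Oscar, a collagen-binding receptor known from osteoclasts, was lower by −0.47 ± 0.12 (limma adjusted p = 0.0230). Its call was lost without AROM+ replicate 1, AROM+ replicate 3 or WT replicate 3, with differences from −0.56 to −0.40 over the 6 fits that leave out an array.

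**Figure D3:**
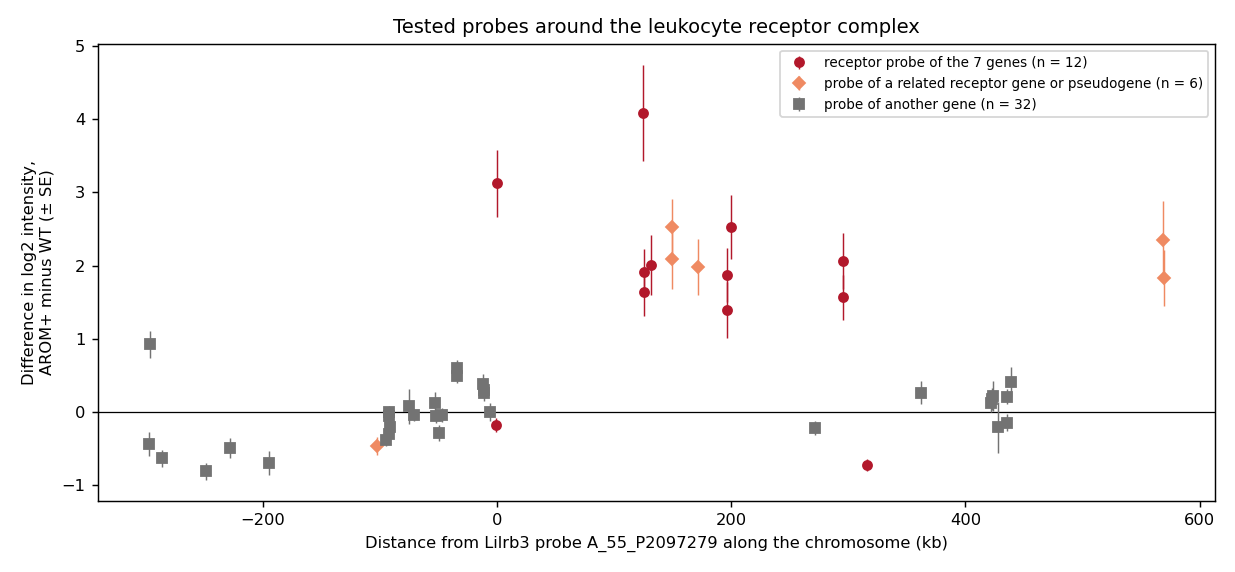
Difference in log2 intensity, AROM+ minus WT, with its SE (y axis) of tested probes on chromosome 7, by distance in kb from the raised Lilrb3 probe (x axis). Probes of the receptor genes (red circles) and their relatives (orange diamonds) reach 1.39 to 4.08 apart from Oscar, the flat Lilrb3 and the lower Lair1 probe, while probes of other genes (grey squares) lie between −0.81 and 0.92.

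The promoters of these genes were compared because 4 of them rose together; Pira1, with no probe, is added for its sequence. RefSeq's table (GRCm38.p6) holds windows of 250 bases before to 50 after the start of Pirb (Lilrb3), Pira1, Pira2, Lilra6 and Lair1. Windows were aligned end to end with gaps, and matching bases are given as a share of the 300. The window of Lilrb3 was identical to that of Pira1 at 97.33%, and Pira2 to Lilra6 at 95.67%. Lilrb3, the inhibitory gene, and Lilra6, an activating gene, were identical at 86.33%, against 54.33% for Lilrb3 and Lair1. What unrelated windows reach with gaps was not measured, so 54.33% is not read as likeness. The letters GAGGAA, a core bound by the myeloid factor PU.1, occur on either strand in all 5 windows and in 28.28% of the 32851 windows of the table. Capitals mark each match, forward or reverse (TTCCTC), for an inhibitory PIR gene (chr7:3720333-3720632), an activating one (chr7:3915452-3915751) and Lair1 (chr7:4063155-4063454), all on the minus strand of GRCm38.p6:
Lilrb3 promoter: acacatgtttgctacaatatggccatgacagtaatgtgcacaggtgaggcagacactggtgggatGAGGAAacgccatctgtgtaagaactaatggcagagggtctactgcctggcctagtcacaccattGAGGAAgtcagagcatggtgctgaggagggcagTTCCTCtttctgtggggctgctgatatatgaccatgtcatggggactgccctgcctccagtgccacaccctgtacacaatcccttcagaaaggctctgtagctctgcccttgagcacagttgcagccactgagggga
Lilra6 promoter: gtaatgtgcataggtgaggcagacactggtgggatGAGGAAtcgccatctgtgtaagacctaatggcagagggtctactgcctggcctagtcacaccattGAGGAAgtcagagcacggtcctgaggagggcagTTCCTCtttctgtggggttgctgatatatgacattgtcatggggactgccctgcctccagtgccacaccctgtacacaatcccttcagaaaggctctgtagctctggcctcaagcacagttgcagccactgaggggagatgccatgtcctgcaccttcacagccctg
Lair1 promoter: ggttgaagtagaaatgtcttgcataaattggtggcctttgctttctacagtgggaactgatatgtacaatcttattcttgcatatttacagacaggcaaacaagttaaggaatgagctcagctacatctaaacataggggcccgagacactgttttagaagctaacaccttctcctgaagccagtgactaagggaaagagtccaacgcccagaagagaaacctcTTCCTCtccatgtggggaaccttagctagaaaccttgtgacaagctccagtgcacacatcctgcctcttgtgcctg
A match of 6 letters is a description of these windows and not a binding site.

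The partners that activating receptors signal through were mostly higher too. Of 13 ITAM adaptor and kinase genes, each represented by its brightest tested probe, 9 were higher and none lower, with a median of 1.24, beside 14.0% of all tested probes higher and a median of −0.19. Fcer1g, the Fc receptor gamma chain that PIR-A requires, read 3.33, 2.50 and 3.13 in AROM+ testes, against 0.78, 1.34 and 0.68 in WT testes, a difference of 2.05 ± 0.26 (limma adjusted p = 0.00400). Tyrobp, the adaptor DAP12, was higher by 2.68 ± 0.27 (adjusted p = 0.00299), and Hcst, the adaptor DAP10, by 2.15 ± 0.38 (adjusted p = 0.00758). With only probes well above background on all arrays, 8 of these genes were higher. The Src-family kinase gene Lyn was not well above background in any WT testis. It entered the test only through its AROM+ signals, so its call is not read as support. Its fold, estimated against the lowest signals well above background, was 6.16. In each of the 9 genes AROM+ replicate 2 was the lowest AROM+ testis. The other 4 were not called, among them Plcg2 (−0.08), Vav1 (−0.30) and Lcp2 (−0.27). Second probes of Vav1 and Lcp2 gave 0.36 and 1.34.

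Of 8 genes of ITIM phosphatases and their partners 5 were higher and none lower, with a median of 0.56. The shares over all tested probes were 14.0% higher and 30.4% lower. Ptpn6, which encodes SHP-1, the phosphatase that PIR-B, gp49B and LAIR1 recruit, read 0.59, −0.73 and −0.30 in AROM+ testes, against −1.91, −1.67 and −2.10 in WT testes. It was higher by 1.74 ± 0.32 (limma adjusted p = 0.00817). The related SHP-2 gene Ptpn11 (0.57 ± 0.09), the kinase gene Csk (0.59 ± 0.12) and the adaptor gene Dok2 (0.62 ± 0.17) were higher as well. The call of Dok2 was lost without any one of the WT testes, with differences from 0.44 to 0.72, and the list's count was 3 without WT replicate 1. Inpp5d, the lipid phosphatase SHIP-1, gave 0.05 ± 0.15 and was not called.

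Genes for known or proposed ligands were measured in the same testes, where 14.0% of all tested probes were higher and 30.4% lower. PIR-A and PIR-B bind MHC class I molecules. Of 9 genes listed for these molecules, B2m among them, 8 were higher and none lower, with a median of 1.10. Whether the product of each listed gene binds these receptors was not tested. H2-Q10 was higher by 1.52 ± 0.29, H2-Q6 by 1.44 ± 0.39, H2-M3 by 1.26 ± 0.21 and H2-D1 by 1.21 ± 0.22 (limma adjusted p = 0.00875, 0.0245, 0.00647 and 0.00827). The call of H2-Q6 was lost without AROM+ replicate 3, WT replicate 2 or WT replicate 3, with differences from 1.07 to 1.88. Of these genes only H2-Q4 was not called (−0.02 ± 0.13). That probe is named H2-Gs10 in the files and H2-Q4 by RefSeq. A second H2-Q10 probe gave 0.56. MHC class I probes can share sequence.

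LAIR1 binds collagens and proteins with collagen-like stretches. Of 14 such genes 11 were higher and 2 lower, with a median of 1.32, while 14.0% of all tested probes were higher and 30.4% lower. The complement genes C1qc, C1qb and C1qa were higher by 2.16 ± 0.26, 1.94 ± 0.31 and 1.77 ± 0.32, and Col3a1, a fibrillar collagen gene, by 1.98 ± 0.22 (limma adjusted p = 0.00387, 0.00603, 0.00766 and 0.00359). Col17a1 (−0.86 ± 0.17) and Sftpd, the gene of surfactant protein D (−0.71 ± 0.23), were lower, and the count of lower genes was 1 without AROM+ replicate 1 or 3 or any one WT testis. Of 7 tested genes for other proposed ligands of PIR-B or gp49B 5 were higher and 1 lower, with a median of 0.56, and 3 were higher without WT replicate 1 or 3. Apoe, the apolipoprotein E gene, was higher by 0.98 ± 0.19. The integrin genes Itgb3 (0.97 ± 0.12) and Itgav (0.80 ± 0.09) each had a second probe that did not move likewise (−0.14 and 0.00). The myelin gene Mag was lower by −0.70 ± 0.15 (adjusted p = 0.0118).

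Other receptors of the same kind were called in both directions, as were all tested probes (14.0% higher and 30.4% lower). Of 6 tested listed receptor genes of the same 2 loci 3 were higher (Gp49a, Gm14548 and Pira6, given above) and 2 lower, with a median of 0.73. The lower ones were Oscar and Ncr1 (−0.36 ± 0.10), a natural killer cell receptor gene, and the count of lower genes was 0 or 1 when any one array was left out. Gp6, the platelet collagen receptor gene, gave −0.54 ± 0.19 and was not called. The pseudogene Gm10693, raised by both probes, was not on the list. Lilra5 was too dim to be tested, at −5.79, −7.12 and −6.29 in AROM+ testes, of which 2 were well above background, against −9.06, −8.88 and −9.16 in WT testes, of which 0 were. Of 11 paired receptor genes elsewhere in the genome 5 were higher and 1 lower, with a median of 0.22. Trem2, a lipid receptor that signals through DAP12, read 2.32, 1.49 and 2.20 in AROM+ testes, against −1.0, −0.71 and −1.29 in WT testes, a difference of 3.0 ± 0.25 (limma adjusted p = 0.00223). Sirpa, the inhibitory receptor for CD47, was higher by 2.76 ± 0.20 (adjusted p = 0.00167). Pilrb2 (2.07 ± 0.58) and Pilrb1 (2.02 ± 0.53) were higher as well. Both of these calls were lost without AROM+ replicate 2, WT replicate 1 or WT replicate 3, with differences from 1.40 to 2.66 and from 1.44 to 2.59, and Pilrb2 had a second probe at 0.04. Treml4 was lower by −0.64 ± 0.16, and the list held 0 lower genes without WT replicate 1 or 3 and 3 without WT replicate 2.

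**Figure D4:**
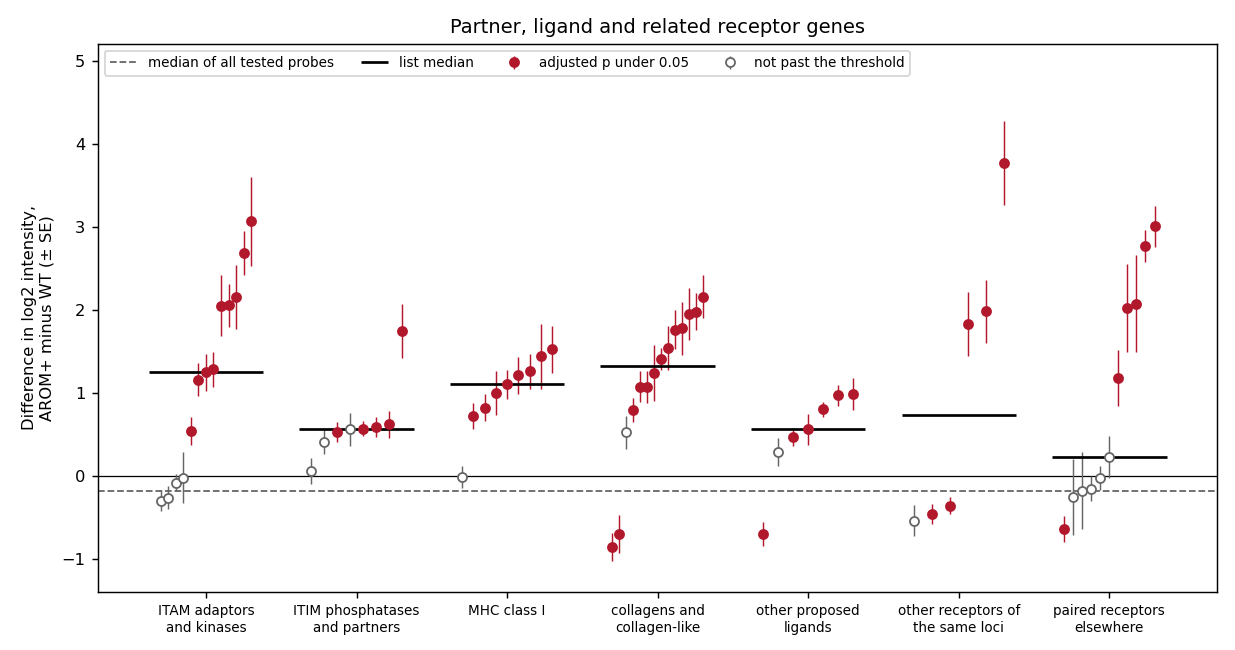
Difference in log2 intensity, AROM+ minus WT, with its SE (y axis) of each tested gene in the 7 lists of partners, ligands and related receptors (x axis), with filled points for genes past the threshold, open points for the others, and bars at the list medians. The medians lie between 0.22 and 1.32, all above the dashed line of all tested probes at −0.19.

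Markers of macrophages, which carry these receptors, were mostly higher in the same testes, where 14.0% of all tested probes were higher and 30.4% lower. Of 10 macrophage and monocyte markers 6 were higher and 2 lower, and the sum of their linear intensities, in multiples of the array's 75th percentile, was 32.9 to 41.8 in AROM+ testes, against 25.4 to 29.0 in WT testes. Bright probes weigh most in such a sum: Aif1, called lower (−0.33 ± 0.09), made up 30.4% to 64.9% of it. The lysozyme gene Lyz2 (2.79 ± 0.36), Cd68 (2.40 ± 0.28), Adgre1, which encodes F4/80 (1.91 ± 0.22), and Mertk (1.17 ± 0.24) were higher, with limma adjusted p = 0.00422, 0.00372, 0.00364 and 0.0105. The CSF1 receptor gene Csf1r was lower by its brightest probe (−0.44 ± 0.12) and higher by its others (1.54 to 2.04). Ccr2 and Cx3cr1, of monocytes and monocyte-derived cells, gave 0.81 ± 0.61 and 1.15 ± 0.55 and were not called. The part of macrophage number in the receptors' differences was not tested.

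Markers of other cells that can carry the receptors were called in both directions, as were all tested probes (14.0% higher and 30.4% lower). Of 10 tested neutrophil markers (12 on the array) 3 were higher and 1 lower, with a sum of 8.34 to 8.67 in AROM+ testes, against 9.28 to 9.34 in WT testes. The uncalled Csf3r (−0.15 ± 0.08) made up 90.6% to 94.1% of that sum, which thus says little of the other markers. Retnlg was higher by 3.41 ± 0.45, S100a8 by 2.73 ± 0.67 and S100a9 by 1.69 ± 0.55, and Mpo was lower by −0.87 ± 0.09. Retnlg and S100a8 were each well above background in only 1 of 3 WT testes, so the sizes of their differences rest on WT values near background. The call of S100a8 was lost without WT replicate 1 (differences from 2.05 to 3.41 over the fits), and that of S100a9 without AROM+ replicate 1 or any one WT testis (1.05 to 2.11). Ltf and Ngp were well above background in 1 AROM+ testis each and in 0 WT testes. Of 8 mast cell markers, cells long known to carry gp49B, 3 could be tested and 1 was higher, with a sum of 1.67 to 2.33 in AROM+ testes, against 1.5 to 1.85 in WT testes. That was Hdc (0.49 ± 0.13), whose call was lost without any one WT testis (0.37 to 0.58). Tpsab1 and Ms4a2 were not well above background on any array. Tpsb2 was so in 3 AROM+ and 3 WT testes and Cpa3 in 2 and 3, both uncalled. Cma1 and Mcpt4 were so in 1 AROM+ and 2 WT testes each, and Fcer1a in 1 and 0.

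Of 6 tested dendritic cell markers 1 was higher and 2 lower, with a sum of 9.43 to 11.2 in AROM+ testes, against 10.5 to 11.7 in WT testes. The Siglech probe counted (−0.21 ± 0.10, not called) made up 83.4% to 89.1% of the sum, and a second Siglech probe gave 3.24. The higher one was Itgax, the CD11c gene that macrophages also express (4.23 ± 0.45), and Zbtb46 (−0.80 ± 0.10) and Flt3 (−0.46 ± 0.10) were lower, Flt3 not without WT replicate 3 (−0.51 to −0.41 over the fits); other probes of Flt3 gave −0.32 to 0.08. Of 5 B cell markers 1 was higher, Cd79b (2.10 ± 0.32), and 2 lower, with a sum of 3.68 to 4.45 in AROM+ testes, against 4.10 to 4.54 in WT testes. The uncalled Cd22 (−0.10 ± 0.11) made up 84.6% to 90.4% of that sum. Of 6 T and natural killer cell markers 1 was higher and 1 lower, with sums of 2.27 to 4.33 and 2.50 to 2.91 in AROM+ and WT testes. Of 2 tested platelet markers 1 was higher, with sums of 1.66 to 3.81 and 0.889 to 1.53 in AROM+ and WT testes. That was Pf4 (1.29 ± 0.35), which made up 93.4% to 98.9% of the sum. Its call was lost without AROM+ replicate 1 or 2 or WT replicate 1 or 3 (1.02 to 1.65 over the fits). Gp9 was not well above background on any array, Ppbp was so in 1 AROM+ and 2 WT testes, and Gp1ba in 2 and 2. Of 5 erythroid markers 0 were called, with sums of 10.2 to 20.5 and 6.80 to 10.8 in AROM+ and WT testes. Of 12 testis genes 1 was higher and 4 lower, with sums of 152 to 169 and 173 to 250 in AROM+ and WT testes. Beside these counts stand 14.0% of all tested probes higher and 30.4% lower. The part of these cells in the receptors' differences was not tested.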

How the data were processed

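Whole testes of 3 AROM+ and 3 WT mice, grouped by the labelled genotype, were each hybridised, labelled with Cy3, to a one-colour Agilent array. The deposited intensity of each spot came from Agilent Feature Extraction (10.7.3.1 in the file headers, 10.10 in the submitters' processing notes) as a background-corrected processed signal, with a flag for spots well above background, per the file headers. The authors also deposited a table of log2 values, which ran parallel to the log2 processed signals (slope 1.00) and served as an alternative.

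Each array had 62976 spots, of which 3671 were controls. Controls and spots with outlier flags (123 to 192 per array) were left out. Log2 of the processed signal minus the array's 75th percentile was averaged over spots of a probe, giving 55681 probes, with no pseudocount. Between 76.6% and 80.6% of spots were well above background, and 0 were saturated; precision is limited by having 3 arrays a group. AROM+ was set against WT by limma 3.58.1 under R 4.3.3 (lmFit, eBayes, Benjamini-Hochberg over 42637 probes, threshold 0.05), as were all adjusted p in the text. The labels name single testes, and p-values measure the spread between them. For a probe not well above background in any WT testis, a fold was taken with WT values set no lower than a floor. The floor was the lowest signal of any probe well above background on that array. Such a fold is an estimate and not a minimum, since other probes set the floor and the spread is not allowed for.

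On simulated data for AROM+ against WT with 42637 probes, 10 of 127 calls were false. The share of truly changed probes recovered was 4% at a log2 change of 0.5, 46% at 1, 88% at 2 and 96% at 4. Only a small part of the simulated probes was changed, all upward and with independent noise. In the real contrast 5982 probes were called higher and 12946 lower. These shares therefore hold for the simulated setting and do not give the recovery in the real contrast.

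The receptors, the 7 lists of partners, ligands and relatives and the 9 marker lists were chosen with earlier results of these data known. The text names every receptor probe and, per list, up to 4 called genes with the largest difference; other list members named were chosen after their values were seen. A listed gene is represented by its tested probe of highest mean. The other settings were normexp background correction (offset 50), quantile normalization, centring on the median of bright probes, spike-in scaling, the deposited log2 table, no filter or a stricter filter on dim probes, 1 probe per gene name, eBayes with a trend, a replicate block, and leaving out each array. Sequences of probes are those of the files (NCBI37/mm9) and promoters are RefSeq's (GRCm38.p6); of the 15 probes 10 matched a RefSeq gene by accession.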

Additional observations from a re-analysis of the deposited data

How the results depend on the processing

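The count of raised receptor probes, 12, stayed within 1.5 times under every setting tried but 1; with 1 probe per gene name it was 6 of 7 genes, with 0 lower, because the flat probe then stands for Lilrb3 and other probes are left out. The flat Lilrb3 probe A_55_P2053398 turned to 0.0367 with quantile normalization. The median difference of the receptors was 1.44 with normexp background correction and 1.78 to 2.39 when an array was left out. With spike-in scaling 3926 of all probes were higher, and 3 genes each in the lists of ITIM phosphatases and of other proposed ligands. Leaving out an array gave 3822 to 5614 higher and 6776 to 11427 lower probes; 3 to 6 higher ITIM phosphatase genes; 3 to 5 higher genes of other proposed ligands; 2 to 5 higher and 0 to 3 lower paired receptors elsewhere; 1 to 2 lower collagen and collagen-like genes; and 0 to 1 lower receptors of the same loci. With no filter 3 paired receptors elsewhere were higher and 1 collagen-like gene was lower, as was 1 with the deposited table. With eBayes with a trend 1 receptor of the same loci was lower. The cause of these shifts was not tested beyond the number of probes or arrays left out. Same-numbered AROM+ and WT testes did not deviate together (correlations 0.07, −0.18 and 0.04), so the numbers were not taken as pairs. With the replicate block 5080 probes were higher and 10053 lower, and 1 receptor of the same loci was lower. Of 304 counts and medians under the other settings 271 stayed within 1.5 times or 1 SD, and of 1027 differences of single probes and genes 950 kept their direction and their side of the threshold.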
